A study of Mus musculus with 20 samples.

Results

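Adipocyte precursor cells of the visceral and the subcutaneous fat depot were compared in female mice that had eaten a high-fat diet for 3 days. The comparison rests on 10 RNA-seq libraries of the 20 in the series, taken by their labels: 5 of VWAT_HFD (perigonadal, visceral) and 5 of SWAT_HFD (inguinal, subcutaneous). All mice were C57Bl6/J females of 8 to 11 weeks, and both groups ate the same diet with 60% lard, so by their labels the groups differ in depot alone. Each library holds cells pooled from 3 mice and sorted by flow cytometry as CD45- and CD31- (not leukocytes, not endothelium), CD29+, CD34+ and Sca1+, with CD24 either present or absent. The gate joins CD24- and CD24+ precursors, and in such bulk samples fewer cells of a type and less RNA per cell cannot be told apart. The other 10 libraries are of the same depots from mice on standard diet (SD, day 0) and are used only at the end, to set the depot difference on the 2 diets side by side. Levels are given as CPM, each gene's count scaled to a common total of gene reads per library, and differences as VWAT minus SWAT on the log2 scale with the standard error (SE).

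White adipose depots hold fibroblast-like precursors in the stroma around vessels and adipocytes, which can divide and become new fat cells when the depot expands. Visceral and subcutaneous depots arise from different parts of the embryonic mesoderm, and their precursors keep different sets of developmental transcription factors in adult life. In mice, Wt1 marks visceral precursors and the mesothelium that covers visceral organs, while Tbx15, Shox2 and En1 are associated with subcutaneous fat. In female mice the inguinal depot surrounds the mammary gland, and the perigonadal depot lies beside the ovary and uterus.

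Depot marker genes separated the 10 libraries as labelled. Wt1, a zinc finger factor of visceral mesoderm, measured 215, 221, 167, 229 and 190.3 CPM in VWAT replicates 1 to 5 and 1.45, 0.587, 0.428, 0.388 and 0.316 CPM in SWAT replicates 1 to 5. Tbx15, a T-box factor of subcutaneous fat and trunk mesenchyme, measured 0.598, 0.297, 0.697, 0.456 and 0.489 CPM in VWAT and 74.6, 69.7, 82.1, 69.1 and 75.7 CPM in SWAT. No library stood between the depots for either gene. Of the markers fixed for the depots, Wt1, Frzb, Ccl11 and Tcf21 were higher in VWAT, and Tbx15, Irf7, En1 and Shox2 were higher in SWAT. Gata6, which marks visceral mesoderm, did not pass the test (25.7 ± 1.91 CPM in VWAT and 26.2 ± 4.53 in SWAT, SD, n = 5 each; difference -0.02 ± 0.13, adjusted p = 0.941).

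**Figure D1:**
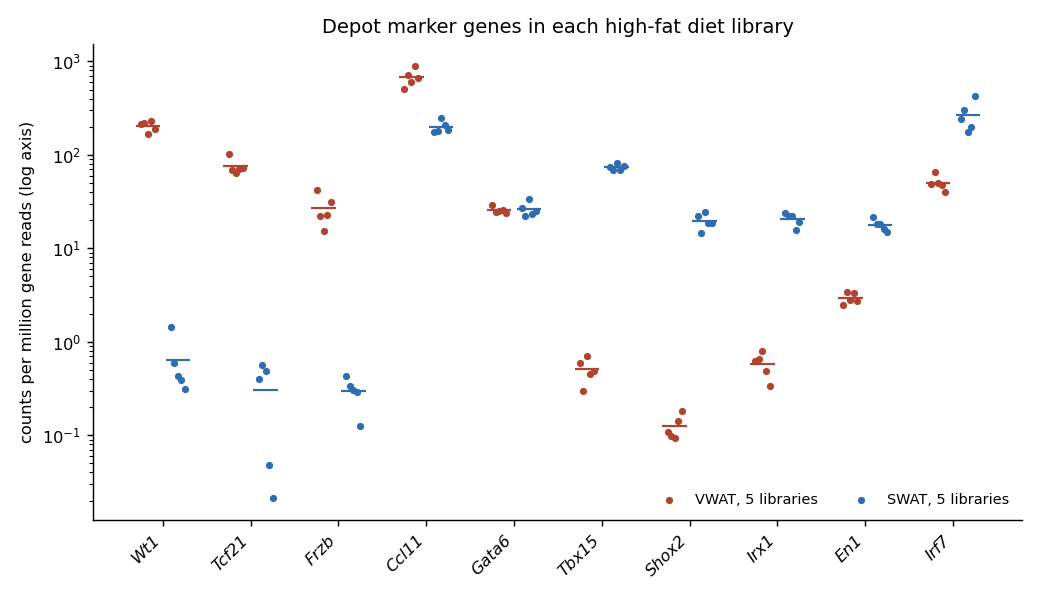
Level in CPM of 10 depot marker genes (log axis) in each of the 5 VWAT libraries (red) and 5 SWAT libraries (blue) on high-fat diet; bars are means. The 2 sets of points are apart for every gene shown other than Gata6, whose VWAT and SWAT means are 25.7 and 26.2 CPM.

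The genes of the sort markers were also read. Cd34 did not pass the test (1973 ± 229 CPM in VWAT, 2194 ± 255 in SWAT; adjusted p = 0.4302), and Itgb1, which encodes CD29, did not either (0.40 ± 0.14, adjusted p = 0.0529) but did with the replicate block (adjusted p = 0.009497). Ly6a, which encodes the Sca1 used in the gate, was 1.96-fold higher in SWAT, with 1110.3, 1102, 1241, 979 and 1017 CPM in VWAT and 2115, 2127, 1676, 2223 and 2635 CPM in SWAT. Every SWAT library lay above every VWAT library, so the sorted cells held unequal Ly6a RNA in the 2 depots. Cd24a, the marker that the gate did not select on, was 3.28-fold higher in SWAT (2.34, 2.87, 6.97, 4.99 and 4.76 CPM in VWAT, 8.17, 7.24, 22.7, 18.2 and 15.98 CPM in SWAT; adjusted p = 0.00407). Ptprc, which encodes CD45, was at 0.683 ± 0.439 CPM in VWAT and 0.865 ± 0.716 in SWAT, and Pecam1, which encodes CD31, at 27.00 ± 7.46 and 21.5 ± 3.998 CPM; neither passed the test (adjusted p = 0.624 and 0.2402).

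Library depth did not separate the depots. VWAT libraries held 21529689 to 36768907 gene reads and SWAT libraries 16347267 to 47483171 (n = 5 each; exact two-sided permutation p = 0.96). The share of reads aligned to more than 1 place was 18.4% to 20.8% in VWAT and 16.6% to 17.9% in SWAT, without overlap (exact permutation p = 0.0079, the smallest that 5 against 5 allows; 0.048 after Benjamini-Hochberg adjustment over 6 technical measures). The other 5 measures did not pass that adjustment. Replicates were compared before averaging, and the chi-square statistic per degree of freedom between libraries of a group was 20.4 to 156, far above sampling noise, so each library counts as 1 replicate. Nothing in the labels says how the pools relate beyond their numbers, and the p-values measure the spread between these pools.

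Of 13659 genes with enough reads to test, 2767 (20.3%) differed between the depots at an adjusted p under 0.05 (edgeR's quasi-likelihood test, Benjamini-Hochberg over all genes tested). A total of 1331 genes (9.74%) were higher in VWAT and 1436 (10.5%) were lower, and these genes are termed called. With the replicate number as a block the counts were 2449 higher and 2246 lower, or 34.4% of all genes tested. Counts of list members with the block, given below, are to be read against that rise over all genes. With all 20 libraries in the fit the counts were 401 and 517. The median difference over all genes was 0.02. A dagger (†) at first mention marks a gene whose call was lost when at least 1 of the 10 libraries was left out. Among called genes, 604 were higher and 705 lower in VWAT by at least 1 on the log2 scale, and 67 were higher and 146 lower by at least 3. The 5 VWAT and 5 SWAT values did not overlap for 2133 genes (15.6% of those tested), 898 of them higher and 1235 lower in VWAT. The first principal component of the log2 CPM values carried 53.5% of the variance and placed VWAT at -57.0 to -37.8 and SWAT at 31.2 to 56.7.

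**Figure D2:**
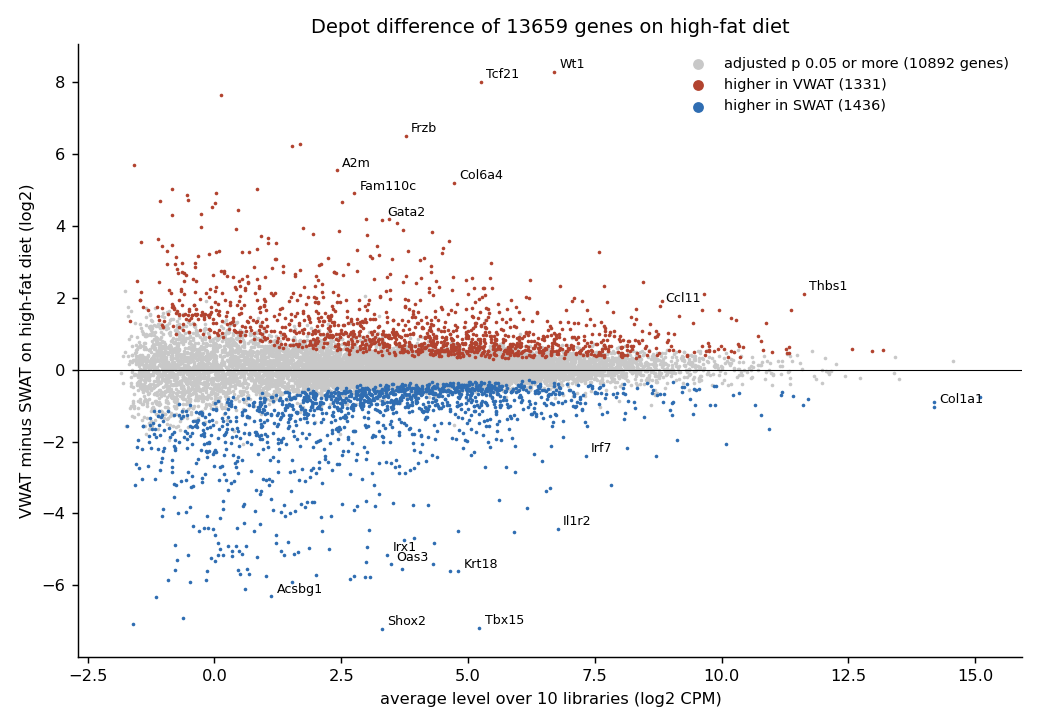
Difference between the depots on high-fat diet (VWAT minus SWAT, log2) against the average level over the 10 libraries (log2 CPM), 1 point per gene for 13659 genes. Red points (1331) were called higher in VWAT and blue points (1436) lower; Wt1 and Tcf21 lie at the top, and Tbx15 and Shox2 at the bottom.

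The 12 genes highest in VWAT by the naming rule were led by transcription factors and secreted proteins. Wt1 stood at 205 ± 25.5 CPM in VWAT against 0.634 ± 0.468 in SWAT (SD, n = 5 each), a difference of 8.29 ± 0.34 (adjusted p = 2.58e-09). Tcf21, a helix-loop-helix factor of visceral mesenchyme, measured 102, 69.1, 64.1, 70.1 and 72.3 CPM in VWAT and 0.403, 0.559, 0.489, 0.0485 and 0.0211 CPM in SWAT (difference 8.02 ± 0.43). Both genes were high in every VWAT library and low in every SWAT library. Gata2, a zinc finger factor that restrains adipocyte formation in mouse preadipocytes, was 18.04-fold higher in VWAT (18.5 ± 3.56 against 1.02 ± 0.308 CPM). Frzb, a secreted inhibitor that binds Wnt ligands, measured 42.3, 21.96, 15.4, 22.7 and 31.5 CPM in VWAT and 0.4303, 0.335, 0.306, 0.291 and 0.126 CPM in SWAT (difference 6.52 ± 0.34, adjusted p = 2.27e-08). The VWAT values of Frzb spread 2.75-fold, and the lowest of them was still far above the highest SWAT value. A2m, a broad protease inhibitor (5.55 ± 0.54), Col6a4, a collagen VI chain (5.21 ± 0.48), and Rxfp2, the receptor for the relaxin-family hormone INSL3 (4.09 ± 0.65), were also among the 12. So were Upk3b (6.296 ± 0.39), a uroplakin that is strong in mesothelium, Dapk2, a death-associated kinase (4.19 ± 0.22), Eef1a2, a tissue-restricted elongation factor (6.23 ± 0.62), and Fam110c (4.91 ± 0.39). The last was Hoxa11as (4.200 ± 0.66), a transcript antisense to Hoxa11; since the strand setting of the counting is not given in the sources used here, its reads and those of Hoxa11 cannot be told apart.

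Of the 12 genes lowest in VWAT, Shox2, Tbx15 and Irx2 are developmental factors with an even level over the SWAT libraries. Shox2, a limb homeobox factor, measured 0.109, 0.0991, 0.0929, 0.143 and 0.183 CPM in VWAT and 22.1, 14.5, 24.7, 18.7 and 18.8 CPM in SWAT (149-fold higher in SWAT; difference -7.22 ± 0.25). Tbx15 was 146-fold higher in SWAT (-7.19 ± 0.19, adjusted p = 4.13e-11, the smallest of all genes tested), and its highest SWAT library was 1.19 times its lowest. Most of the others are genes of epithelia, and these were uneven. Cdh1 (E-cadherin; -5.77 ± 0.79), Epcam, an epithelial adhesion molecule (-5.74 ± 0.74), and the simple-epithelium keratins Krt8 (-5.61 ± 0.44) and Krt18 (-5.61 ± 0.52) had SWAT values that spread 4.31-fold to 11.1-fold over the 5 libraries. Epcam measured 2.93, 4.53, 27.5, 19.4 and 12.1 CPM in SWAT replicates 1 to 5 and 0.0272, 0.231, 0.232, 0.627 and 0.0916 CPM in VWAT, so all SWAT libraries were higher but replicates 3 and 4 far more so than 1 and 2. Prom2 (-5.904 ± 0.71), a prominin of epithelial protrusions, and Dmbt1 (-5.77 ± 0.88), a secreted mucosal protein, spread 3.94-fold and 4.48-fold. Fcgbp (-5.82 ± 0.68), a mucus protein, spread 7.98-fold. Cldn11 (-5.56 ± 0.80), a tight-junction claudin, spread 19.7-fold with another order of libraries. SWAT replicate 1, the lowest SWAT library for Epcam, was the highest for Cldn11 (79.4 CPM). Acsbg1 (-6.31 ± 0.70), a long-chain acyl-CoA synthetase, spread 5.91-fold.

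Epithelial RNA was a measured property of the SWAT libraries. Of 26 genes of mammary and skin epithelium, 20 were tested and 17 were lower in VWAT, with a median difference of -4.03 beside 0.02 for all genes. Their summed level was 12.2, 18.9, 16.9, 20.2 and 13.6 CPM in VWAT and 85.4, 147, 467, 359 and 230.4 CPM in SWAT. The SWAT pools thus differed several-fold, and SWAT replicates 3 and 4, which had the most, also had the highest Cd24a. Krt8, Krt18, Cldn4 (-5.42 ± 0.59) and Cldn3 (-3.73 ± 0.44) were the members of smallest p. The milk protein genes Csn2, Wap and Lalba had too few reads to test. In a fit without SWAT replicates 3 and 4, chosen after the data were seen, 990 genes were higher and 1094 lower in VWAT, and 16 of the 20 epithelial genes were still lower. The part of epithelial RNA in other differences was not tested.

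**Figure D3:**
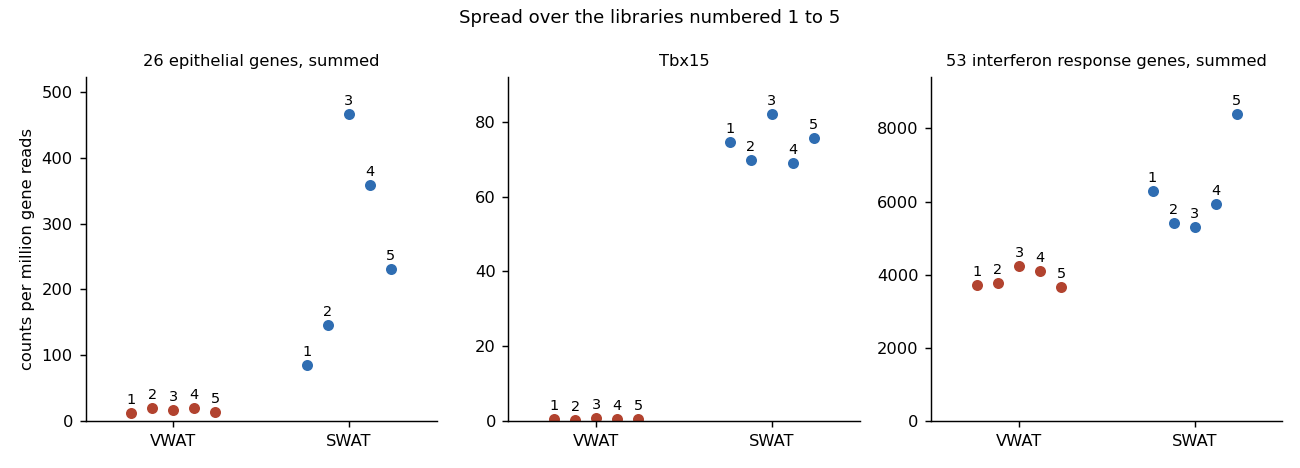
Summed level of 26 epithelial genes (left), level of Tbx15 (middle) and summed level of 53 interferon response genes (right), in CPM, in each library; digits are replicate numbers. SWAT replicate 3 is highest for the epithelial genes and SWAT replicate 5 for the interferon genes, while Tbx15 varies little within SWAT.

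Developmental transcription factors were read as a subcutaneous and a visceral list, chosen by the depot each gene is known from. Of 25 subcutaneous developmental factors tested, 16 were lower in VWAT and 1 was higher, with a median difference of -1.71. Among the largest after Shox2 and Tbx15 were the Iroquois homeobox genes Irx1 (24.1, 22.3, 22.1, 15.7 and 18.9 CPM in SWAT, 0.626, 0.661, 0.7896, 0.485 and 0.336 in VWAT), Irx2 (-5.705 ± 0.35) and Irx5 (-3.77 ± 0.31), which pattern limb and body wall. Tbx5, the T-box gene of the forelimb and heart, was 30.7-fold higher in SWAT (15.6 ± 2.78 against 0.504 ± 0.215 CPM), and Lmx1b, which sets dorsal identity in the limb, 33.6-fold (6.06 ± 1.41 against 0.177 ± 0.131 CPM). En1, which in the mouse marks a dermal and subcutaneous lineage, differed less (5.94-fold; 17.8 ± 2.58 against 2.96 ± 0.3802 CPM), and Prrx1, a general mesenchymal homeobox gene, was the most abundant of the list in counts (303 ± 51.7 against 178 ± 18.7 CPM; -0.76 ± 0.14). Tbx3 was the 1 member higher in VWAT (1.31 ± 0.14, adjusted p = 1.45e-05). Twist1, Pitx1 and Tbx2 did not pass the test.

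Of 11 visceral developmental factors tested, 4 were higher and 2 lower in VWAT (median -0.02). Besides Wt1 and Tcf21, the higher ones were Nkx3-2 (3.09 ± 0.32), a homeobox gene of splanchnic mesoderm and skeleton, and Nr2f1, an orphan nuclear receptor (1.33 ± 0.13). Osr1, a zinc finger factor of intermediate mesoderm, was lower in VWAT (62.2 ± 13.04 against 123 ± 29.2 CPM; adjusted p = 0.00212), and so was Emx2† of the urogenital ridge (-0.45 ± 0.15, adjusted p = 0.0479). Gata4 and Nr5a1, factors of gonad and visceral mesoderm, had too few reads to test.

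The Hox genes, which record position along the body axis, were called in both directions. Of 29 tested, 8 were higher and 5 lower in VWAT, and their median difference was 0.04. In cluster A 4 of 11 tested were higher and 7 not called, in cluster B 1 of 7 was lower, in cluster C 4 of 7 were lower, and in cluster D all 4 tested were higher; direction was not tested against cluster. Hoxa11 measured 7.64, 6.67, 7.94, 6.33 and 6.47 CPM in VWAT and 0.376, 1.37, 0.367, 0.291 and 0.126 CPM in SWAT (difference 3.78 ± 0.44; reads shared with its antisense transcript, as above). Hoxa13 (4.71 ± 0.50), Hoxd11 (4.65 ± 0.73) and Hoxd10 (4.45 ± 0.67), all of posterior position, were at low levels in VWAT (1.22 ± 0.3402, 1.81 ± 0.244 and 2.49 ± 0.7703 CPM) and lower in SWAT (0.0359 ± 0.0362, 0.0615 ± 0.137 and 0.1202 ± 0.159 CPM). All SWAT reads of Hoxd11 came from replicate 2, which was also the highest SWAT library for Hoxa11. Hoxd9 was the most significant of the D cluster (8.65 ± 2.03 against 2.35 ± 0.488 CPM; adjusted p = 2.49e-05), and Hoxd8 the most abundant of the list in VWAT among called members (13.7 ± 1.94 against 7.14 ± 1.49 CPM). On the other side, Hoxc9 measured 4.35, 6.51, 7.15, 5.16 and 5.13 CPM in VWAT and 13.04, 17.2, 18.3, 18.3 and 15.2 CPM in SWAT (2.87-fold higher in SWAT), and Hoxc8 was 2.29-fold higher (-1.197 ± 0.16). Hoxc4, Hoxc5 and Hoxb4† were the other 3 (-0.69 ± 0.16, -0.99 ± 0.20 and -0.79 ± 0.23). The summed level of 39 Hox genes overlapped between the depots, at 122 to 165 CPM in VWAT and 134 to 172 CPM in SWAT.

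Wnt proteins are secreted signals that hold precursors undifferentiated or set their fate, and their genes divided between the depots. Of 37 ligands, receptors and targets tested, 10 were higher and 10 lower in VWAT. Ligands on the SWAT side were Wnt2 (76.6, 97.2, 104, 108 and 107 CPM in SWAT, 15.7, 28.2, 26.3, 17.8 and 23.6 in VWAT), Wnt10b (-0.87 ± 0.14), which blocks adipogenesis in the mouse, Wnt11 (-0.56 ± 0.15) and, at low levels, Wnt16 (-5.23 ± 0.55) and Wnt7b (-4.98 ± 0.73). Ligands on the VWAT side were Wnt4 (17.8 ± 4.498 against 3.06 ± 1.42 CPM) and Wnt2b (0.96 ± 0.26). The R-spondins, which amplify Wnt signals at the receptor, were split as well, with Rspo1 7.44-fold and Rspo3 4.64-fold higher in VWAT and Rspo4 3.44-fold higher in SWAT. Receptors Fzd1, Fzd4, Fzd5, Fzd7 and Fzd8 were modestly higher in VWAT (Fzd1, the most abundant, 0.83 ± 0.12), and Fzd2† and Fzd10 were higher in SWAT (-0.63 ± 0.18 and -2.57 ± 0.43). Axin2, the usual readout of canonical signalling, did not pass the test in this fit (-0.60 ± 0.21, adjusted p = 0.0541) and did with the replicate block (adjusted p = 0.0302). Among 7 secreted antagonists tested, Frzb, Sfrp1 (178 ± 37.9 against 72.6 ± 18.04 CPM) and Sfrp4† (0.36 ± 0.12) were higher in VWAT. Dkk2 (-2.86 ± 0.35) and Apcdd1 (-1.36 ± 0.23) were lower.

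Of 35 BMP and activin genes tested, 12 were higher and 3 lower in VWAT (median 0.14). With the replicate block, 14 were higher and 6 lower, beside a rise from 20.3% to 34.4% of all genes called. The 3 lower genes showed the larger differences. Chrdl1, a secreted antagonist that binds BMP4, measured 14.6, 13.7, 18.2, 19.8 and 23.1 CPM in VWAT and 175, 124, 237, 191 and 167 CPM in SWAT (9.89-fold higher in SWAT, adjusted p = 1.11e-07). Bmp7, a ligand linked to thermogenic fat formation in the mouse, was 3.92-fold higher in SWAT (48.7 ± 8.36 against 12.3 ± 3.101 CPM), and Bmp3, an atypical ligand, 12.9-fold. Higher in VWAT were the pseudoreceptor Bambi (1.47 ± 0.14), the ligands Bmp6 (1.11 ± 0.16) and Bmp5 (1.95 ± 0.37), the activin subunits Inhbb (1.56 ± 0.27) and Inhba (2.29 ± 0.49) and the activin-binding Fst (152 ± 18.5 against 100.2 ± 18.1 CPM). Bmp4 and Bmp2 did not pass the test (-0.29 ± 0.35 and 0.04 ± 0.15).

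All 6 called genes of the 15 TGF-beta genes tested were higher in VWAT, with a median of 0.46. TGF-beta is stored in the matrix bound to latent-binding proteins, and Ltbp4 measured 2806, 4771, 4428, 4276 and 3585 CPM in VWAT and 1174, 1486, 1465, 1217 and 1057 CPM in SWAT. Ltbp2 (1.41 ± 0.34), Ltbp1† (0.46 ± 0.13), the ligand Tgfb2 (0.95 ± 0.19) and the latent-TGF-beta docking protein Lrrc32 (0.75 ± 0.13) were also higher in VWAT. With the replicate block 11 were higher and 1 was lower, beside 34.4% of all genes called.

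The insulin-like growth factor genes showed large single differences in both directions. Pappa, a protease that frees IGF by cutting its binding protein, was 11.99-fold higher in VWAT (44.9 ± 14.2 against 3.82 ± 1.196 CPM), while its paralogue Pappa2 was 7.28-fold higher in SWAT (21.8 ± 4.03 against 2.99 ± 1.26 CPM). H19, an imprinted non-coding RNA next to Igf2, measured 43.1, 46.9, 42.96, 46.5 and 39.03 CPM in VWAT and 264, 475, 452, 479 and 358 CPM in SWAT (difference -3.203 ± 0.18). Igfbp5 and Igfbp6, which bind IGFs, were higher in SWAT (-1.64 ± 0.16 and -0.71 ± 0.15). In all, 3 of 17 IGF genes were higher (6 with the replicate block) and 5 lower in VWAT; Igf1 did not pass the test (0.78 ± 0.28, adjusted p = 0.06005) and did with the replicate block (adjusted p = 0.0183), as did Igf2 (0.62 ± 0.27, adjusted p = 0.118 without and 0.00178 with the block). Of 15 FGF genes tested, only Fgf1 was higher in VWAT (30.6 ± 5.13 against 9.98 ± 1.44 CPM), and Fgf9 and Fgf13 were lower (-1.32 ± 0.36 and -1.58 ± 0.21). The share of the FGF list called was near the 20.3% of all genes, so no excess is read from it. Of 7 PDGF genes, Pdgfa (1.58 ± 0.20) and the precursor marker Pdgfra† (0.40 ± 0.12) were higher in VWAT, and Pdgfc (-1.42 ± 0.19) and Pdgfrb (-0.69 ± 0.16) lower.

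Interferon response genes were higher in SWAT as a group. Type I interferon acts through transcription factors such as STAT2 and IRF9, which act at the interferon-stimulated response element before genes with antiviral roles. Of 53 such genes tested, 40 were lower in VWAT and 1 was higher, with a median difference of -1.14 beside 0.02 for all genes; 10.5% of all genes tested were lower. With the replicate block 45 were lower and 2 higher. The core of that element, searched as GAAA, any 2 bases and GAAA on either strand, was found in the 250 bases before the start of 11 of the 28 lower genes with a promoter in the RefSeq table (38 of the 53 matched), and of 4 of the 9 that were not called. Over all 32851 promoters in the table it was found in 2.98%. The promoters of the gene with the largest difference and of 2 other members lower in VWAT are shown (RefSeq, GRCm38.p6), with the element core in capitals: Oas3 at chr5:120777660-120777909 and Isg15 at chr4:156200819-156201068, both on the minus strand, and Ifit3 at chr19:34583279-34583528 on the plus strand.
Oas3: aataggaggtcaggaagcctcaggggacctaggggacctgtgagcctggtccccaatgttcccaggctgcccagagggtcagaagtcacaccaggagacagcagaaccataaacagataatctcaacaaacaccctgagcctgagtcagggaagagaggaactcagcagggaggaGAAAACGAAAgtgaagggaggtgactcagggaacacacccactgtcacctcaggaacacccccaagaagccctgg
Isg15: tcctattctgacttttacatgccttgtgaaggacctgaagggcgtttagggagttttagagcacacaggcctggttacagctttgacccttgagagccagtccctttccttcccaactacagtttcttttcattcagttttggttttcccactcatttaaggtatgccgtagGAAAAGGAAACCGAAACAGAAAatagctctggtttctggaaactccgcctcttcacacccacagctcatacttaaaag
Ifit3: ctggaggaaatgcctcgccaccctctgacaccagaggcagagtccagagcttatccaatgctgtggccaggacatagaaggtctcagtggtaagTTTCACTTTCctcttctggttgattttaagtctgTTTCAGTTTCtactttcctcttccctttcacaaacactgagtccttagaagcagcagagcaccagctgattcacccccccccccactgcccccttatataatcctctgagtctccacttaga
Isg15 and Ifit3 hold overlapping or repeated copies (3 and 2), and Oas3 holds 1.

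Oas3, which makes the messenger that activates RNase L, measured 0.4895, 0.462, 0.7896, 0.342 and 0.489 CPM in VWAT and 15.7, 15.1, 16.4, 15.8 and 44.4 CPM in SWAT (42.7-fold higher in SWAT, difference -5.42 ± 0.39, adjusted p = 5.47e-07). Irf7, the factor that amplifies interferon production, measured 48.8, 65.8, 49.9, 47.8 and 40.5 CPM in VWAT and 241, 302, 175, 201 and 426 CPM in SWAT (5.27-fold). The highest VWAT library was below the lowest SWAT library for both genes. Isg15, a ubiquitin-like modifier, measured 19.5, 17.1, 13.4, 17.5 and 12.1 CPM in VWAT and 89.3, 52.8, 37.9, 49.3 and 123 in SWAT. Usp18, which removes that modifier and damps the receptor (-2.72 ± 0.22), the oligoadenylate synthetase Oas2 (-2.43 ± 0.23), the nucleic acid sensors Zbp1 (-2.71 ± 0.25) and Dhx58 (-2.37 ± 0.27), and Ifit3 (-2.85 ± 0.35) and Mx1 (-3.895 ± 0.40), which block viral RNA, were all lower in VWAT. Differences of the signalling factors were smaller: Stat2 -1.28 ± 0.17 and Irf9 -0.87 ± 0.17. Lgals3bp, the most abundant member, was at 478 ± 69.04 CPM in VWAT and 854 ± 209.6 in SWAT. Irf8, a factor better known from myeloid cells, was the 1 member higher in VWAT (21.6, 35.9, 40.6, 37.8 and 27.7 CPM in VWAT, 11.00, 14.4, 16.03, 13.4 and 11.9 in SWAT; adjusted p = 2.06e-04).

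The interferon difference was present in all SWAT pools and largest in replicate 5. The summed level of the 53 genes was 3729, 3768, 4228, 4098 and 3649.6 CPM in VWAT and 6283, 5413, 5304, 5922 and 8394 CPM in SWAT. Replicate 5 of SWAT held 44.4 CPM of Oas3, beside 15.1 to 16.4 CPM in the other 4. Without any 1 of the 10 libraries, 36 to 42 members were lower in VWAT. Without SWAT replicates 3 and 4, 37 members were lower. The leukocyte list, whose cells also respond to interferon, was at 29.5 to 70.7 CPM in VWAT and 47.8 to 83.2 CPM in SWAT, and its part in this difference was not tested.

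**Figure D4:**
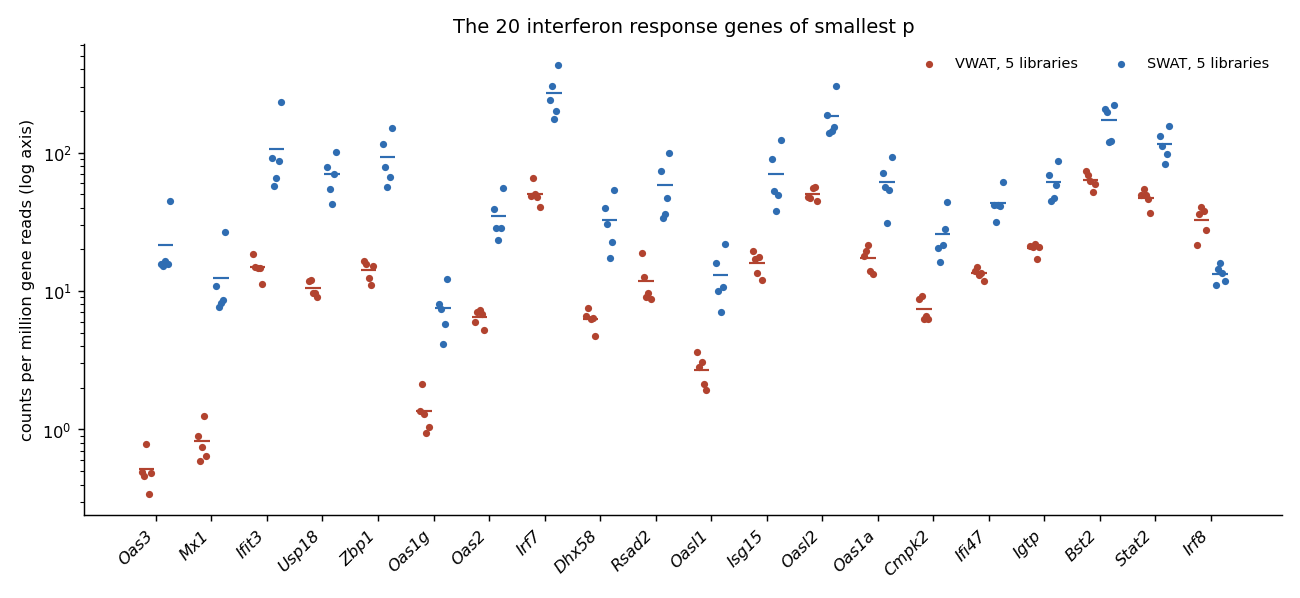
The 20 interferon response genes of smallest p, ordered by their difference, in CPM (log axis); each point is 1 library and bars are means. For Oas3, Irf7 and Isg15 every SWAT library (blue) lies above every VWAT library (red); Irf8, at the right, is higher in VWAT.

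Genes of MHC class I antigen presentation, which interferon also induces, went the same way with smaller differences. Of 19 tested, 13 were lower in VWAT and none higher (median -0.54); with the replicate block 13 were lower and 1 was higher. H2-T23, a non-classical class I gene, was 2.97-fold higher in SWAT (151 ± 20.7 against 50.3 ± 9.05 CPM), followed by H2-Q6 (-1.31 ± 0.16) and H2-Q7 (-1.15 ± 0.17). The classical genes H2-K1 (-0.68 ± 0.12) and H2-D1 (-0.54 ± 0.13), the light chain B2m (771 ± 61.3 against 1069 ± 81.9 CPM), the peptide transporter Tap1 (-0.72 ± 0.16) and the immunoproteasome subunits Psmb8 (-1.004 ± 0.15) and Psmb9 (-1.03 ± 0.16) differed by less. The H2 genes are near-identical copies, so the split of reads among them is uncertain.

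Chemokines were called in both directions. Of 26 chemokine and receptor genes tested, 10 were higher and 6 lower in VWAT. Ccl11 (eotaxin), which draws eosinophils, measured 501, 717, 598, 901 and 670.2 CPM in VWAT and 177, 181, 249.7, 209 and 182 CPM in SWAT (3.43-fold higher in VWAT, difference 1.78 ± 0.17). The neutrophil attractants Cxcl5 (2.67 ± 0.39), Cxcl3 (2.08 ± 0.33), Cxcl2 (437 ± 118 against 182 ± 44.03 CPM) and Cxcl1† (0.57 ± 0.17, adjusted p = 0.0298) were all higher in VWAT. The monocyte attractants Ccl2† (1238 ± 279 against 789 ± 193 CPM) and Ccl7 (0.78 ± 0.17) were too, as were Cxcl16 (1.302 ± 0.13) and Cxcl10 (0.81 ± 0.13). Cxcl10 is also an interferon target, and its direction was opposite to that of the 40 interferon genes above. The lymphoid-tissue chemokines Cxcl13 (-1.94 ± 0.20) and Ccl19 (-1.96 ± 0.22), with Cxcl14 (-0.84 ± 0.13) and Cx3cl1 (-0.94 ± 0.19), were higher in SWAT. Cxcl12 did not pass the test (0.12 ± 0.15, adjusted p = 0.597).

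Inflammatory cytokines and NF-kB targets were more often higher in VWAT, with 10 of 31 tested higher and 4 lower (median 0.23; 12 and 8 with the replicate block). Il6 measured 1022, 616, 649, 1069 and 855 CPM in VWAT and 309.5, 189, 366, 341 and 294 CPM in SWAT (difference 1.496 ± 0.20, adjusted p = 1.16e-04). Every VWAT library was above every SWAT library. Vcam1, an adhesion molecule for leukocytes (1.41 ± 0.18), Icam1 (957 ± 198 against 611 ± 87.7 CPM), the cytokines Lif (0.99 ± 0.26) and Tslp (1.397 ± 0.23) and Nfkb1, a subunit of NF-kB (1.04 ± 0.20), were higher too. Il18 (-2.05 ± 0.21), the NF-kB cofactor Nfkbiz (605 ± 35.9 against 319 ± 31.2 CPM), Lcn2 (-2.62 ± 0.44), which is also on the epithelial list, and Csf2† (-0.72 ± 0.23) were higher in SWAT. Tnf, Il1b and Csf1 did not pass the test.

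NF-kB proteins bind the kappaB site, searched here as GGGA, any 2 bases and TTCC on either strand. It was found in 1.21% of the 32851 promoters. Of the 26 chemokine and receptor genes tested, 16 had a promoter in the table, among them 4 of the 10 that were higher in VWAT. It was found in these 4 (Cxcl1, Cxcl2, Cxcl3 and Cxcl10), in none of the 4 matched lower genes and in none of the 8 matched genes not called. Of the inflammatory list it was found in 1 of 7 higher genes (Il6), none of 3 lower and 3 of 13 not called. 3 promoters of the VWAT side that hold it are shown with the site in capitals (RefSeq, GRCm38.p6, plus strand): Cxcl2 at chr5:90903649-90903898, Cxcl1 at chr5:90890995-90891244 and Il6 at chr5:30012864-30013113.
Cxcl2: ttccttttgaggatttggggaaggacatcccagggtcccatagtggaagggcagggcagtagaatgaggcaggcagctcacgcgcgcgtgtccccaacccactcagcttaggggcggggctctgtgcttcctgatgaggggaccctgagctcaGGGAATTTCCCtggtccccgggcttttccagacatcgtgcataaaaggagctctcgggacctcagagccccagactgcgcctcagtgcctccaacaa
Cxcl1: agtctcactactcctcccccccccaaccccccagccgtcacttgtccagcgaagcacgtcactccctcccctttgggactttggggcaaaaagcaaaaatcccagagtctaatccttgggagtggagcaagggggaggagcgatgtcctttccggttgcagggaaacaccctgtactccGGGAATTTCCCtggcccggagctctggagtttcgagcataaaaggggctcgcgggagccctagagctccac
Il6: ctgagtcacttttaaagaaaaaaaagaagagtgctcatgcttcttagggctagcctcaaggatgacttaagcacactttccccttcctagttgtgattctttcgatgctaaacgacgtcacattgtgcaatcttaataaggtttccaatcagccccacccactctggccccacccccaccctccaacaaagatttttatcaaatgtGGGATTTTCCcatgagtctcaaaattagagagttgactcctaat
In Cxcl1 and Cxcl2 the capitals cover 2 matches, 1 on each strand, that overlap.

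Complement genes were split. C4b measured 387, 487, 512, 342 and 349.9 CPM in VWAT and 1764, 2017, 1494, 1669.9 and 1905 CPM in SWAT (4.21-fold higher in SWAT), and C2, its partner in the C3 convertase, was 3.89-fold higher in SWAT. C4a†, the near-identical copy of C4b, was at 0.356 ± 0.187 CPM in VWAT and 0.796 ± 0.129 in SWAT, so the share of C4a and C4b is uncertain. The regulator Cd55 (1.09 ± 0.17), which limits complement at cell surfaces, was higher in VWAT. In all, 3 of 25 tested were higher (5 with the replicate block) and 9 lower. C6, of the membrane attack complex, was among the lower (-1.83 ± 0.26), and so were C1qa, C1qb† and C1qc†, genes of macrophages, with C1qa at 0.646 ± 0.244 CPM in VWAT and 1.59 ± 0.615 in SWAT. C3 did not pass the test (0.36 ± 0.15, adjusted p = 0.103) and did with the replicate block (adjusted p = 0.0495).

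**Figure D5:**
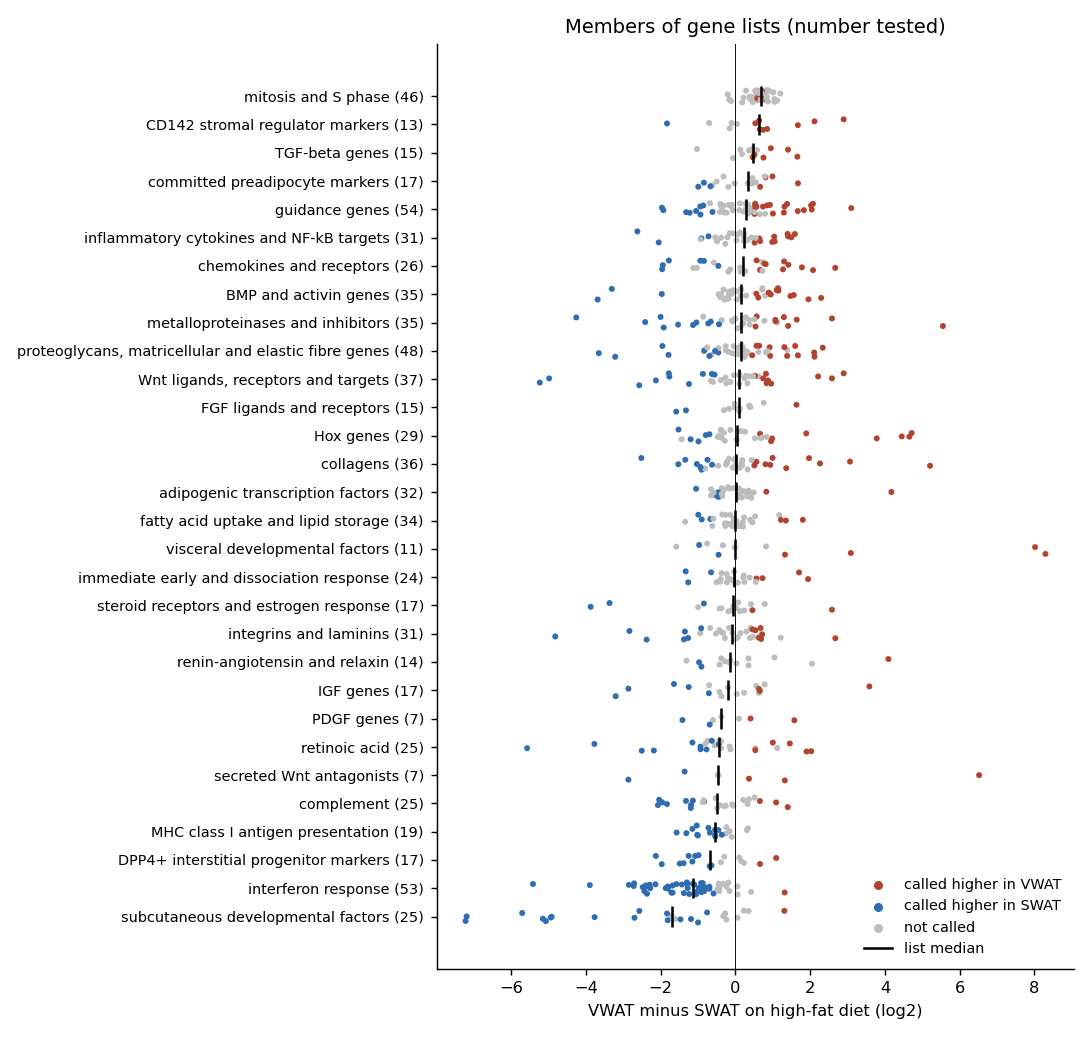
Difference between the depots (VWAT minus SWAT, log2) of every tested member of each gene list other than those for other cell types, ordered by the list median (black bar); red and blue members were called higher and lower in VWAT, grey ones were not called. The subcutaneous factors (-1.71) and the interferon genes (-1.14) have the lowest medians of the lists drawn and the mitosis genes (0.68) the highest.

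Collagen genes were called in both directions. Of 36 tested, 11 were higher and 8 lower in VWAT, with a median of 0.02. Fibril-forming collagens were among those higher in SWAT. Col1a1 measured 10331, 12819, 11609.8, 12096 and 14323 CPM in VWAT and 23143, 23356, 30426, 23393 and 26066 CPM in SWAT, and Col1a2 (-0.91 ± 0.12), Col3a1 (-0.75 ± 0.15) and Col5a2 (-0.63 ± 0.12) followed it. The beaded-filament collagen VI chains were higher in VWAT, both the main chains Col6a1 (0.51 ± 0.14) and Col6a2 (0.56 ± 0.15) and the rarer Col6a4, Col6a5 (2.26 ± 0.27) and Col6a6 (0.93 ± 0.17); Col6a3 did not pass the test (-0.07 ± 0.15). The network-forming Col8a1 (1.97 ± 0.28) and Col8a2 (3.06 ± 0.14) and the basement-membrane-zone Col15a1 (2229 ± 244 against 1290.4 ± 61.8 CPM) were higher in VWAT. Col18a1, its close relative and the source of endostatin, was higher in SWAT (-0.93 ± 0.13), as was the transmembrane Col23a1 (-1.53 ± 0.18).

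Other matrix genes had no common direction, and 12 of 48 proteoglycan, matricellular and elastic fibre genes were higher in VWAT and 8 lower. The thrombospondins went opposite ways. Thbs1, an activator of latent TGF-beta, measured 4898, 4436, 3732, 6182 and 6175 CPM in VWAT and 1189, 813, 1247, 1135 and 1553 CPM in SWAT, whereas Thbs2 was 3.87-fold higher in SWAT (905 ± 550.3 against 228 ± 32.3 CPM). Cilp (2.12 ± 0.13), Matn2 (2.34 ± 0.31), Sparcl1 (1.67 ± 0.16) and Fbln1 (1.38 ± 0.19) were higher in VWAT, as were the small proteoglycans Lum (0.93 ± 0.19), Dcn† (7264 ± 1421 against 4949 ± 965 CPM) and Bgn† (0.64 ± 0.19). Postn, a matrix protein of remodelling tissue, was higher in SWAT (4268 ± 1092 against 2389 ± 291 CPM). Fn1, Eln and Sparc did not pass the test.

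Enzymes that cut the matrix were divided as well. Of 35 metalloproteinases and inhibitors tested, 9 were higher and 10 lower in VWAT. Mmp3 (stromelysin) measured 115, 132, 145, 135 and 131 CPM in VWAT and 633, 742, 855, 683 and 637 CPM in SWAT (5.33-fold higher in SWAT), and Mmp27 (-2.002 ± 0.23), Mmp2 (gelatinase A; -0.73 ± 0.15) and the inhibitor Timp3 (-1.13 ± 0.15) were also higher there. The aggrecanase Adamts4 (2654 ± 612 against 1091 ± 219 CPM), the procollagen proteinase Adamts3 (2.58 ± 0.20), Adamts16 (1.41 ± 0.19), the inhibitor Timp1 (0.54 ± 0.13) and Mmp17 (1.64 ± 0.21) were higher in VWAT. Among 31 integrins and laminins, 7 were higher and 7 lower (10 and 12 with the replicate block). Itgb7, better known from lymphocytes that home to the gut, was 28.2-fold higher in SWAT (38.7 ± 11.8 against 1.39 ± 0.601 CPM) and Lamc3 5.19-fold; Itgb8, which activates TGF-beta, was 6.38-fold higher in VWAT. The laminin chains Lama4 (0.71 ± 0.12), Lamb1 (0.67 ± 0.12) and Lamc1 (2965 ± 226 against 2179.8 ± 232 CPM) were higher in VWAT.

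Genes that make and use retinoic acid, a vitamin A derivative that restrains adipogenesis, differed in their enzymes and receptors. Of 25 tested, 5 were higher and 10 lower in VWAT (median -0.44). The first step, from retinol to retinaldehyde, had Rdh10 (128, 106, 87.2, 133 and 111 CPM in VWAT, 32.3, 20.03, 33.03, 27.8 and 26.6 in SWAT) and Adh1 (1.903 ± 0.22) higher in VWAT and Adh7 (-3.77 ± 0.17) higher in SWAT. The second step had Aldh1a2 higher in VWAT (1.46 ± 0.34) and Aldh1a1 in SWAT (111 ± 26.9 against 64.3 ± 11.4 CPM). Cyp26b1, which breaks retinoic acid down, was 5.68-fold higher in SWAT, and the receptors Rara† (-0.44 ± 0.15), Rarb (-0.93 ± 0.23) and Rarg (-0.93 ± 0.18) were all higher there. Crabp1, a binding protein, was at 2.62 ± 0.406 CPM in SWAT and 0.0475 ± 0.0396 in VWAT.

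Of 17 genes of steroid receptors and estrogen response tested, 2 were higher and 3 lower in VWAT (29.4% called, beside 20.3% of all genes); with the replicate block 4 were higher and 4 lower. Esr1†, the main estrogen receptor, was 125 ± 26.4 CPM in VWAT and 92.5 ± 9.15 in SWAT (adjusted p = 0.0381). Wisp2, a secreted protein induced by estrogen and Wnt in human breast cells, was 10.3-fold higher in SWAT (170.00 ± 67.5 against 16.3 ± 2.94 CPM). The cyclin gene Ccnd1 (-0.84 ± 0.12) and Celsr2 (-3.87 ± 0.76) were also higher in SWAT, and Wnt4, given above, in VWAT. Greb1 did not pass the test (-0.37 ± 0.47). Among 14 renin-angiotensin and relaxin genes tested, Rxfp2 was higher in VWAT. The angiotensin receptor Agtr1a (-0.91 ± 0.13) and the converting enzyme Ace (1230.1 ± 256 against 621 ± 160.3 CPM) were higher in SWAT. The share of the list called, 21.4%, was near the 20.3% of all genes. With the replicate block 2 were higher and 4 lower, beside 34.4% of all genes called. Ren1, which encodes renin, did not pass the test (2.05 ± 0.72, adjusted p = 0.0597).

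Of 32 adipogenic transcription factors tested, 2 were higher and 4 lower in VWAT, with a median of 0.00; the share called, 18.8%, is near the 20.3% of all genes. Pparg, the main regulator of adipocyte formation, measured 6.94, 7.43, 11.7, 9.06 and 10.5 CPM in VWAT and 8.69, 12.2, 14.7, 10.1 and 11.9 CPM in SWAT (-0.32 ± 0.19, adjusted p = 0.267), with the groups overlapping. Cebpa (0.42 ± 0.15, adjusted p = 0.0626) did not pass the test and did with the replicate block (adjusted p = 0.0105); Cebpb did not pass either way (0.06 ± 0.13). Called members were Gata2 and the liver X receptor gene Nr1h3† (0.83 ± 0.25) on the VWAT side, and Prdm16, a regulator of thermogenic fat (-1.05 ± 0.20), Klf6 (-0.49 ± 0.13), Klf3† (-0.45 ± 0.12) and Srebf1† (-0.46 ± 0.13) on the SWAT side. With the replicate block 6 were higher and 9 lower (46.9%, beside 34.4% of all genes). Of 34 genes of fatty acid uptake and lipid storage, 3 were higher in VWAT, among them the acyl-CoA synthetases Acsl1 (1.22 ± 0.16) and Acsl4 (111 ± 39.6 against 43.7 ± 15.3 CPM). Another 3 were lower, namely Fabp4 (-0.99 ± 0.16), Mgll (-0.90 ± 0.16) and Plin2† (-0.67 ± 0.19). The share of this list called, 17.6%, was near the 20.3% of all genes. With the block the counts were 8 and 7 of 34, beside 34.4% of all genes called.

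Markers of precursor states described in mouse inguinal fat were read next. Markers of the DPP4+ interstitial progenitor were mostly higher in SWAT, at 10 of 17 tested, with 2 higher in VWAT (median -0.69). Dpp4 measured 197, 163, 187, 229.5 and 218 CPM in VWAT and 417, 279, 387, 504 and 527 CPM in SWAT, and Pi16, the most abundant member, 2075 ± 583 against 4153 ± 837 CPM. Wnt2 and Bmp7, given above, Ly6c1 (-1.25 ± 0.13) and Anxa3 (-1.39 ± 0.16) were higher in SWAT, and Cd55 and Uchl1 (0.66 ± 0.16) in VWAT. Markers of the CD142+ stromal cell that restrains adipogenesis went the other way, with 8 of 13 higher in VWAT and 1 lower (median 0.64). F3, which encodes CD142, measured 191, 123, 163, 211 and 232 CPM in VWAT and 48.7, 57.03, 84.7, 51.5 and 49.7 CPM in SWAT. Cilp, Rspo1 and Bgn, given above, Adam12 (0.85 ± 0.12) and Vit (0.74 ± 0.16) were higher too, and Meox2 was lower (-1.83 ± 0.33); with the block 2 were lower. The committed preadipocyte list was split, with 4 higher, such as Aoc3 (0.99 ± 0.12), Sparcl1 and Col15a1, and 3 lower of 17; with the block 9 were higher and 5 lower. 

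Genes of mitosis and DNA synthesis depended on how the libraries were paired. Of 46 tested, 5 were higher in VWAT and none lower in the fit without a block: Mcm4 (0.61 ± 0.13), Cdt1, Pcna, Ccne1† and Rrm1†. That share, 10.9%, was near the 9.74% of all genes called higher. With the replicate block, 32 were higher and none lower, beside 34.4% of all genes called in either direction. The list median was 0.68 without the block. Without SWAT replicate 1, 11 were higher without a block; without VWAT replicate 1 or SWAT replicate 3, 4 or 5, 3 were. The summed level was 992, 749.7, 381, 369.8 and 532 CPM in VWAT replicates 1 to 5 and 616, 446, 301, 257 and 352 CPM in SWAT replicates 1 to 5. Each VWAT library was above the SWAT library of its number, while the groups overlapped. Top2a, which untangles DNA at division, measured 81.9, 55.2, 17.5, 18.04 and 43.2 CPM in VWAT and 40.3, 19.3, 12.1, 4.75 and 18.1 in SWAT (adjusted p = 0.0965 without the block and 3.51e-05 with it). Mki67, the usual proliferation marker, had adjusted p = 0.212 and 7.88e-04 in the same order, with a difference of 0.86 ± 0.47 without the block.

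Axon guidance genes, which also steer vessels and nerves in fat, were more often higher in VWAT, at 18 of 54 tested, with 9 lower (median 0.28). The repulsive ligand Slit2 (74.5 ± 8.27 against 21.1 ± 5.81 CPM) with its receptors Robo1† (0.54 ± 0.14) and Robo2 (1.38 ± 0.28), Sema5a (2.02 ± 0.17), the semaphorin co-receptor Nrp2 (1.67 ± 0.16) and Plxna4 (2.04 ± 0.17) and Plxnc1 (3.098 ± 0.27) were higher. Ntn1 (196 ± 15.6 against 100.4 ± 24.6 CPM), Sema3b (-1.05 ± 0.17) and Epha3 (-1.93 ± 0.31) were higher in SWAT. Immediate early genes, which respond to stimuli ahead of most others, were split. Fos (746, 971, 1507, 1147 and 712 CPM in VWAT, 2032, 2918, 3540.4, 2178 and 1732 in SWAT), Ier2 (-1.33 ± 0.25) and Jun† (-0.65 ± 0.18) were higher in SWAT, and Nr4a1† (0.56 ± 0.17), Nr4a2 (1.94 ± 0.28), Nr4a3 (1.702 ± 0.30) and Fosl1 (0.73 ± 0.18) in VWAT. The other 17 of 24 were not called; with the replicate block 6 were higher and 7 lower.

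Markers of other cell types were read against the gate. Of 18 leukocyte genes tested, none was higher and 6 were lower in VWAT, among them Cd14 (-1.07 ± 0.18) and Cd74† (8.99 ± 2.73 against 16.2 ± 5.63 CPM); without VWAT replicate 3, 10 were lower, and without VWAT replicate 1, 4 or 5 or SWAT replicate 1, 3 were. Of 18 endothelial genes, 4 were higher and 2 lower, and the summed levels overlapped (236 to 411 CPM in VWAT, 339 to 442 CPM in SWAT). Kdr (-1.48 ± 0.31) and Tek† (-0.46 ± 0.15) were lower in VWAT, and Cldn5† (0.76 ± 0.23) and, at low levels, the lymphatic genes Lyve1† (1.29 ± 0.42) and Flt4† (1.23 ± 0.38) were higher. The count of higher endothelial genes was 0 to 2 without VWAT replicate 3, 4 or 5 or any 1 SWAT library. The mesothelial list was split in a way that followed the depots: Upk3b, Msln (4.53 ± 0.63), Upk1b (3.48 ± 0.51) and Lrrn4 (4.34 ± 0.64) were higher in VWAT at 1.76 ± 1.09 CPM for Msln, while keratins such as Krt19 (-4.52 ± 0.24) and Cdh1, which the epithelial list also holds, were higher in SWAT. In all 9 of 16 were higher and 5 lower. The summed level of 18 mesothelial genes overlapped, at 331 to 392 CPM in VWAT and 203 to 464 CPM in SWAT. Of 13 mural cell genes, 7 were higher, including Acta2 (0.88 ± 0.19), Tagln (0.90 ± 0.17) and Des (2.56 ± 0.45), and 3 lower, including Kcnj8 (-3.14 ± 0.32) and Abcc9 (-1.504 ± 0.30). The summed level of 14 mural genes overlapped, at 341 to 631 CPM in VWAT and 406 to 540 CPM in SWAT. Star, a steroidogenic gene, was the 1 called of 3 ovarian genes tested (14.9 ± 2.22 against 1.65 ± 0.767 CPM), while Fshr, Cyp17a1 and Amh had too few reads to test. Of 6 muscle genes tested, 3 were higher and 1 lower, with Actn3 (2.54 ± 0.23) among the higher. Tnnt3† (0.96 ± 0.30) and Myl1† (-1.82 ± 0.50) are on the same list. The summed level of 16 muscle genes did not overlap, at 80.2 to 147 CPM in VWAT and 13.6 to 45.5 CPM in SWAT. Of 6 Schwann cell genes 1 was higher and 1 lower (Mbp, -2.89 ± 0.16), and of 7 mature adipocyte genes 1 was higher (Plin1, 1.802 ± 0.43). The summed level of 8 Schwann cell genes was 377 to 473 CPM in VWAT and 331 to 372 CPM in SWAT, also without overlap. The median difference of the 6 tested went the other way (-0.30), so the sum does not stand for the typical member. None of 5 erythroid genes was called, also with the replicate block. The part of these cell types in the differences above was not tested.

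The depot difference on high-fat diet was last set beside that on standard diet. On standard diet the libraries labelled replicate 5 go against their labels in both depots: the library labelled VWAT_SD replicate 5 held 0.165 CPM of Wt1 and 51.1 CPM of Tbx15, and the library labelled SWAT_SD replicate 5 held 83.8 CPM of Wt1 and 0.374 CPM of Tbx15. With all 10 standard diet libraries no gene was called between depots; without these 2, 577 of 12875 (4.48%) were. Of the 2599 genes called on high-fat diet and tested in each fit, 2463 (94.8%) had the same sign on standard diet in the 8 libraries and 2331 (89.7%) in the 10. Of those that differed by at least 3 on the log2 scale, 173 of 173 had the same sign in the 8 libraries and 159 were called there. Genes not called on high-fat diet had the same sign in 62.9% of cases.

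Whether the depot difference itself differed between the diets was read from edgeR's interaction test. Over all 20 libraries it called 0 of 14242 genes (605 at an unadjusted p under 0.05). DESeq2 and limma-voom on the same 20 libraries also called 0. That fit holds the 2 standard diet libraries that go against their labels, with which no gene was called between depots on standard diet. The 0 therefore does not show that the depot difference was equal on both diets. Without the 2 libraries that go against their labels, 1 of 14360 genes (0.00696%) was called, which was Frzb. Its VWAT level was 26.8 ± 10.4 CPM on high-fat diet and 12.6, 7.62, 5.59 and 6.00 CPM in standard diet replicates 1 to 4. Its SWAT level was 0.298 ± 0.1101 CPM on high-fat diet and 1.31, 1.398, 0.480 and 0.418 CPM in standard diet replicates 1 to 4. The interaction was 3.27 ± 0.52 on the log2 scale (adjusted p = 0.044, edgeR) in these 18 libraries and 5.17 ± 1.203 (adjusted p = 0.94) in all 20. The depot difference of Frzb was thus 6.52 ± 0.34 on high-fat diet and 3.24 ± 0.46 on standard diet in the 8 libraries. Its call rests on leaving out both libraries that go against their labels. The part of the technical differences between the diets in this call was not tested.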

How the data were processed

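RNA-seq of sorted adipocyte precursors was read from 1 table of raw counts deposited by the authors. Per the submitters' processing notes, TopHat, HTSeq and mm9 were used; their versions, the strand setting and the annotation were not given in the sources used here. Of 33929 rows, 5 are counting summaries (21.8% to 26.8% of all reads in the 10 high-fat diet libraries) and 25 are named as dates (about 0.1% of gene reads); both kinds were left out, which leaves 33899 genes.

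CPM is a gene's count over the library's gene reads. The 10 libraries were fitted alone with edgeR 4.0.16 (R 4.3.3): filterByExpr with a minimum count of 10, TMM scaling (factors 0.969 to 1.046), and robust quasi-likelihood tests with Benjamini-Hochberg adjustment over all 13659 genes tested, called at an adjusted p under 0.05. The SE is the absolute log2 difference divided by the square root of F. A fitted fold of a gene with few reads in 1 depot depends on the prior count. Lists are described by counts and medians, with no list test. The fit was tested on simulated counts.

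Genes were named by rule: the 12 largest differences in each direction among called genes that averaged 1 or more in log2 CPM and did not overlap, the marker and sort genes, and of each list the 4 of smallest p and the most abundant, with further members where the account of a family needs them; a few genes that the rule names are not reported here. The members and lists were chosen with earlier results of these data known.

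The replicate numbers were checked as a pairing. Deviations from the group means of same-numbered VWAT and SWAT libraries correlated at 0.59, 0.48, 0.11, 0.20 and 0.18 for numbers 1 to 5. All were above 0.1, so the fit with the number as a block is given where it changes a call. For VWAT replicates 3, 4 and 5, a SWAT library of another number correlated more. These were VWAT replicate 3 with SWAT replicates 2 and 4 (0.21 and 0.23), and VWAT replicates 4 and 5 with SWAT replicate 3 (0.41 and 0.21). The labels do not say what a number shares.

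Promoters came from RefSeq (GRCm38.p6), matched by symbol; no coordinates were taken from the deposited table. GC content was matched for 31053 genes. The alternatives were RLE scaling, no filter, DESeq2 1.42.0, voom of limma 3.58.1, all 20 libraries, the block, GC offsets, the no-feature share as covariate, each library left out, and, chosen after seeing the data, 2 SWAT libraries left out.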

Additional observations from a re-analysis of the deposited data

Results flagged for a closer look

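In groups of 5, a library was picked out where its gap to the nearest other library exceeded 0.71 of the group's whole range (Dixon's ratio; CPM values of the genes named above). Such gaps were found in 46 of 618 tests (7.44%). The cutoff gives about 5% for normally distributed values, which CPM values without a log scale need not be, so no excess is read from this share. SWAT replicate 1 stood above the rest of its group for Cldn11 (0.764), Lif (0.712), Lrrn4 (0.885), Pcna (0.791), Rrm1 (0.732), Upk3b (0.84) and Wt1 (0.762) and below them for Cxcl13 (0.803), with the ratio after each gene. SWAT replicate 2 stood above the rest of its group for Adh1 (0.912), Cldn5 (0.718), Des (0.888), Hoxa11 (0.799), Hoxa11as (0.831), Hoxd11 (1.0), Inhbb (0.784) and Vwa1 (0.749). SWAT replicate 3 stood above the rest of its group for Col8a1 (0.722), F3 (0.768), Fzd4 (0.804), Meox2 (0.774) and Ntn1 (0.771) and below them for Mgll (0.741). SWAT replicate 4 stood above the rest of its group for Uchl1 (0.739). SWAT replicate 5 stood above the rest of its group for Ifit3 (0.802), Mx1 (0.828) and Oas3 (0.955).

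VWAT replicate 1 stood above the rest of its group for Cldn11 (0.748), Tcf21 (0.784) and Wnt16 (0.775) and below them for Ltbp1 (0.854). VWAT replicate 2 stood above the rest of its group for Adamts16 (0.716), Cldn4 (0.722), Prom2 (0.916) and Wnt10b (0.796). VWAT replicate 3 stood above the rest of its group for Actn3 (0.914), C1qa (0.723), Dapk2 (0.734), Hoxb4 (0.75) and Ptprc (0.717). VWAT replicate 4 stood above the rest of its group for Csf1 (0.726), Dmbt1 (0.975), Fzd4 (0.757) and Krt8 (0.819) and below them for Plxna4 (0.763). VWAT replicate 5 stood above the rest of its group for Cilp (0.73) and Rxfp2 (0.8).

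The 8 genes for which SWAT replicate 2 stood high, among them Hoxa11, Des and Adh1, were all higher in VWAT. SWAT replicate 1 was the highest SWAT library for Wt1, and it also stood high for the mesothelial genes Upk3b (0.161 CPM) and Lrrn4 (0.242 CPM). SWAT replicate 5 was high for the interferon genes Ifit3, Mx1 and Oas3, as in the plot of the interferon genes. VWAT replicate 3 was high for the leukocyte genes Ptprc and C1qa at about 1 CPM.

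The depot difference of Frzb was larger on high-fat than on standard diet by 3.27 on the log2 scale in the 18 libraries left after removal of the standard diet libraries numbered 5 (edgeR's interaction test, adjusted p = 0.044). In all 20 libraries the interaction did not pass the test (adjusted p = 0.94). The part of the technical differences between the diets in this result was not tested.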

How the results depend on the processing

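The main counts were 1331 genes higher and 1436 lower in VWAT. They moved by more than 1.5 times under 3 alternatives: with all 20 libraries in the fit they were 401 and 517, with the replicate block 2449 and 2246, and with the block and GC offsets 2567 and 2464. Under RLE scaling (1343 and 1440), no filter (1265 and 1550), DESeq2 (1663 and 1738), limma-voom (1383 and 1520), the no-feature covariate (1324 and 1428), GC offsets (1711 and 1775) and the added fit without SWAT replicates 3 and 4 (990 and 1094) they stayed within that range. Without each library in turn, the higher genes numbered 993 to 1487 and the lower 1131 to 1746. The interaction of diet and depot was called for 0 genes in the main fit and without each library in turn (0 to 0), and for 1 gene without the 2 standard diet libraries that go against their labels; the cause of these changes was not tested.

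Over 309 genes named here and 20 settings, 39 of 6180 differences changed sign, all of them in 11 genes that were called neither in the main fit nor under the alternative. No called gene changed sign. Of the 280 called, 163 kept the call in every setting, and 116 of the 117 others lost it with all 20 libraries. Without 1 library, 32 lost it in at least 1 case (marked with a dagger). The block changed no named call other than those given in the report. Leaving out 1 library moved some list counts by more than 1.5 times; beside the mitosis, leukocyte and endothelial lists, these were counts of 1 to 5 genes, which went to between 0 and 6. SWAT replicates 3 and 4, with the most epithelial RNA, are also the shallowest SWAT libraries (16347267 and 20616700 gene reads), and levels under about 0.1 CPM rest on few reads there.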

Other observations

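Outside the gene lists, 11 called genes differed by at least 2 on the log2 scale with a mean of at least 100 CPM in the higher depot; this rule was chosen after the values were seen. SWAT was higher for 6. Il1r2, the decoy receptor that binds interleukin-1 without signalling, was at 9.63 ± 0.9500 CPM in VWAT and 209.6 ± 40.6 in SWAT (SD, n = 5 each; -4.43 ± 0.17, adjusted p = 1.78e-09, edgeR). Akr1c18, which inactivates progesterone in the mouse, was at 9.24 ± 2.35 and 134 ± 38.3 CPM, and Slco2a1, the prostaglandin transporter, at 25.9 ± 6.21 and 152 ± 54.04 CPM. The lipocalin Apod (-2.17 ± 0.29), the granin Scg3 (-2.11 ± 0.18) and AW551984 (-2.36 ± 0.12) were the others.

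VWAT was higher for 5. Sele, which encodes E-selectin, known from activated endothelium, was at 343 ± 114 CPM in VWAT and 35.95 ± 7.51 in SWAT (3.26 ± 0.24, adjusted p = 5.82e-07, edgeR). Of the 18 endothelial genes tested in the same libraries, 4 were higher and 2 lower in VWAT, with a median difference of 0.43. Cldn5, Lyve1 and Flt4 were among the higher, Kdr and Tek were the 2 lower, and Pecam1 did not pass the test. Cldn5, Lyve1, Flt4 and Tek lost their calls when at least 1 library was left out. The summed level of the 18 genes overlapped between the depots (236 to 411 CPM in VWAT, 339 to 442 CPM in SWAT). The part of endothelial RNA in the level of Sele was not tested. Mgp, matrix Gla protein, which limits calcification, was at 586 ± 117 and 110.1 ± 54.9 CPM. The matrix protein gene Vwa1 (2.51 ± 0.23), Fxyd5, a modulator of the sodium pump (2.33 ± 0.22), and Plekha6 (2.004 ± 0.21) were the others. For all 11 genes, the 5 VWAT and 5 SWAT values did not overlap (15.6% of all genes tested). The rule picked called genes with a large difference, which favours values that do not overlap, so this adds no support.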
